A study of Drosophila melanogaster with 2 samples.

Results

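The bone morphogenetic protein (BMP) genes examined here were 10 genes of *Drosophila melanogaster* that encode the ligands, the receptors and the extracellular modulators of the pathway: *dpp*, *gbb*, *tkv*, *put*, *sax*, *wit*, *magu*, *dally*, *sog* and *cv-2*. They were 10 of the 13945 protein-coding genes annotated on the main chromosome arms. A peak was assigned to a gene when its summit lay inside the gene, or when the nearest protein-coding transcription start site (TSS) within 10 kb belonged to it. The genes were chosen by name, with their peaks in these data already known, so the number of peaks, their signal and their replicate support are given as a description and without a test.

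The assay was chromatin immunoprecipitation followed by sequencing (ChIP-seq) of CG10348, the product of a predicted C2H2 zinc-finger gene. Per the labels, both samples were whole pupae aged 2 days, of a transgenic strain that carried CG10348 fused to enhanced GFP, and the sonicated chromatin was precipitated with an antibody against GFP. The 2 samples were biological replicates of 1 group. Whole animals were used, so every value averages over all pupal tissues, and a peak in few cells cannot be told apart from a weak peak in many.

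In the fly, BMP ligands signal through complexes of type I and type II receptor kinases, which phosphorylate the transcription factor Mad. Secreted and cell-surface proteins set how far the ligands travel and how much of them reaches the receptors. In the pupal wing this system is known for the specification of the longitudinal veins and crossveins, and at the neuromuscular junction for synapse growth.

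The authors thresholded their lists on the irreproducible discovery rate (IDR), which is low where a region ranks consistently high in both of a pair of peak lists. In the list they named conservative, 5 of the 10 genes held a peak: *dpp*, *put*, *wit*, *magu* and *dally*, with 7 peaks in all. The same rule gave a conservative peak to 10.1% of all protein-coding genes. In the other list of the pooled samples, called optimal here, 5 genes held 10 peaks, against 10.6% of all genes. Replicate 1's own list placed 5 peaks at 3 of the genes, against 7.65% of all genes, and replicate 2's own list 6 peaks at 4 of them, against 6.42%. *gbb*, *tkv*, *sax* and *cv-2* had no peak in any of the 4 lists, and *sog* had peaks in the optimal list alone. Nothing is read from these shares, since the genes were chosen with their peaks known and are long: their median length was 17.8 kb, against 2.17 kb over all protein-coding genes and 7.32 kb over the genes with a conservative peak.

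The sequences at 6 of the 7 conservative summits are shown because all 7 were richer in A and T than the DNA around them; the window of *magu*, which had the highest share of G and C of the 7 (38%), is not printed. Each is 100 bases of dm6, plus strand, 5′ to 3′, read from the RefSeq genome. Capitals mark unbroken runs of at least 6 A or T. In order, they are the stronger *wit* peak (chr3L:4070582-4070681), the weaker *wit* peak (chr3L:4071128-4071227), the *dpp* intron peak (chr2L:2433592-2433691), the *dpp* upstream peak (chr2L:2426611-2426710), the *put* peak (chr3R:14624129-14624228) and the *dally* peak (chr3L:8821827-8821926). For contrast, the last pair are the strongest optimal peak of *sog* (chrX:15630955-15631054) and the strongest region of *tkv* (chr2L:5225649-5225748), which passed no threshold. None of the 8 windows overlapped an annotated protein-coding exon.
wit, stronger: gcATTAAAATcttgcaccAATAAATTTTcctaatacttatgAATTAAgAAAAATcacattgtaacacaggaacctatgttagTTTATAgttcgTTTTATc
wit, weaker: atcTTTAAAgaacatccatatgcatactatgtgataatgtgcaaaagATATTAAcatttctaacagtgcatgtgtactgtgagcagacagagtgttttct
dpp, intron: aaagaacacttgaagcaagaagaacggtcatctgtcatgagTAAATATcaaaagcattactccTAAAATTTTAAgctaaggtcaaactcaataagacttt
dpp, upstream: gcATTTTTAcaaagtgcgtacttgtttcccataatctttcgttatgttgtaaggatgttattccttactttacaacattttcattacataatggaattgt
put: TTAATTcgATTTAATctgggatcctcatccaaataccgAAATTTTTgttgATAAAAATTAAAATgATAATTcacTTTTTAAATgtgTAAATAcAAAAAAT
dally: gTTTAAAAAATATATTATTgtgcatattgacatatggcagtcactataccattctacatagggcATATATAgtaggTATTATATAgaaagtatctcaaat
sog, not in the conservative list: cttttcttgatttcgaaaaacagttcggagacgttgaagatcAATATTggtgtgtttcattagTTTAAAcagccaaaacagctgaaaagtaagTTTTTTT
tkv, not passed: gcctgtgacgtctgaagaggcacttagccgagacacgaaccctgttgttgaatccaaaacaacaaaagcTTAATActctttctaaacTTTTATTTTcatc

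The A and T runs were unevenly spread over these windows. At *put* 63 of the 100 bases lay in 8 such runs, at the stronger *wit* peak 42 bases in 6 runs, and at *dally* 34 bases in 3 runs, the longest of 18 bases. The upstream *dpp* window, with 30% G and C, had 1 run of 7 bases, so its A and T bases were more broken up by G and C.

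Across the series, the conservative list held 1799 peaks on the main arms and the optimal list 1914, while the replicates' own lists held 1268 and 1016. The highest IDR in the conservative list was 0.00999. The deposited lists gave no read counts, so the depth is unknown. The signal is the authors' own value of peak strength, whose scaling was not stated, and it is used to describe and rank peaks within a list. A single control served for both replicates, and it was not analysed here.

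Decapentaplegic, encoded by *dpp*, is the fly homologue of BMP2 and BMP4 and the ligand that patterns the wing. The gene (FBgn0000490) spans chr2L:2428372-2459823 on the plus strand and has 4 annotated start sites. It held a pair of conservative peaks, with summits 6981 bp apart, on either side of the most distal start site. The stronger lay at chr2L:2433558-2433711, in the 26006 bp first intron of the longest transcript, dpp-RA, 5270 bp downstream of that start. Relative to the next start, that of dpp-RB, its position was -16551 bp.

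The pooled signal of the intronic *dpp* peak was 220.1, which placed it 147th of 1799, with 8.12% of conservative peaks stronger. Its signal was 115.5 in replicate 1 and 104.7 in replicate 2, at ranks 182 and 137 of 75150 and 84779 ranked regions, and its IDR was 1.51e-05. Both replicates called it, their summits lay 10 and 13 bp from the pooled summit, and of the 7 peaks it had the highest signal in replicate 2.

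The second *dpp* peak lay outside the gene, at chr2L:2426493-2426828, 1711 bp upstream of the dpp-RA start. Its pooled signal was 108.8 (rank 605, IDR 0.000518), with 51.5 in replicate 1 and 55.4 in replicate 2. It was the single conservative peak of these genes whose signal was higher in replicate 2. No ranked region over the proximal start sites of *dpp* passed: the strongest, with its summit at 2449801 and 392 bp upstream of the nearest of them, had a signal of 46.5 and an IDR of 0.0289.

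The other ligand, Glass bottom boat (*gbb*, FBgn0024234), is related to BMP5, BMP6 and BMP7 and acts in the wing and at the neuromuscular junction. Its gene is 1.69 kb long, at chr2R:23851562-23853247, and 4 ranked regions were assigned to it. None passed a threshold. The strongest had a pooled signal of 15.5 and an IDR of 0.597, below the median of 16.2 over all ranked regions, and replicate 1 had no region there while replicate 2 had a signal of 13.3.

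Wishful thinking, encoded by *wit*, is a type II BMP receptor best known at the neuromuscular junction. The gene (FBgn0024179) spans chr3L:4064152-4071717 on the minus strand. It held the peak of highest signal among the 10 genes and another conservative peak beside it, with summits 546 bp apart, both in the 3094 bp first intron that the annotated transcripts share.

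The stronger *wit* peak lay at chr3L:4070583-4070666, 1085 bp downstream of the TSS, with a pooled signal of 258.8 at rank 105 and 5.78% of conservative peaks stronger. Its signal was 169.7 in replicate 1 and 85.0 in replicate 2, at ranks 81 and 226 of their ranked regions, and its IDR was 1.14e-05. It had the widest gap between the replicates of the 7 conservative peaks, although both called it and placed the summit within 3 bp of the pooled one. At 84 bp it was also narrow: 0.278% of conservative peaks were as narrow or narrower, and 89.4% had the commonest width of 336 bp.

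The weaker *wit* peak, at chr3L:4071010-4071345, lay 539 bp downstream of the TSS. Its pooled signal was 129.9 at rank 440, with 75.3 in replicate 1 and 53.8 in replicate 2 and an IDR of 0.00024. Both replicates called it, with summits 5 and 25 bp from the pooled one. The region over the *wit* TSS itself, 40 bp upstream, was ranked with a signal of 30.4 and did not pass. Further into the gene, a region with its summit at 4069868 and a signal of 41.1 did not pass either. Its nearest TSS, 379 bp away, was of another gene, *CG32259*. The *wit* TSS was the nearest to both conservative summits, but the *CG32259* start lay at a similar distance beyond the stronger one.

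Punt, encoded by *put*, is the type II receptor that Dpp signalling uses widely. The gene (FBgn0003169) lies at chr3R:14619030-14625703 on the minus strand, and its peak at chr3R:14624011-14624346 fell in the 1527 bp first intron, 1524 bp from the TSS. The pooled signal was 76.9 at rank 1087, below the median of 86.6 over all conservative peaks, with an IDR of 0.00267. The replicate signals, whose scaling was not stated, were 35.6 in replicate 1 and 33.7 in replicate 2. Only replicate 2 called the peak in its own list, at rank 955 of 1016. The peak's −log10 IDR was 1.88 in replicate 1's ranked list and 2.31 in replicate 2's. Among all ranked regions it was at rank 1240 in replicate 2 and 1680 in replicate 1.

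The type I receptors had no peak. Thickveins (*tkv*, FBgn0003716), the main type I receptor for Dpp, is a 52.4 kb gene at chr2L:5219000-5271384 with 63 ranked regions. Its strongest region, with its summit at 5225699, had a pooled signal of 54.8, with 23.5 in replicate 1 and 30.9 in replicate 2. The IDR was 0.0145, against a highest of 0.00999 in the conservative list. That region lay inside *tkv*, but the TSS nearest to it, 7445 bp away, was of *TpnC25D*. Saxophone (*sax*, FBgn0003317), a type I receptor that responds to Gbb, is 3.58 kb long at chr2R:7806484-7810067. Its strongest region had a signal of 28.4, 19.0 in replicate 1 and 15.5 in replicate 2, and an IDR of 0.885.

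**Figure D1:**
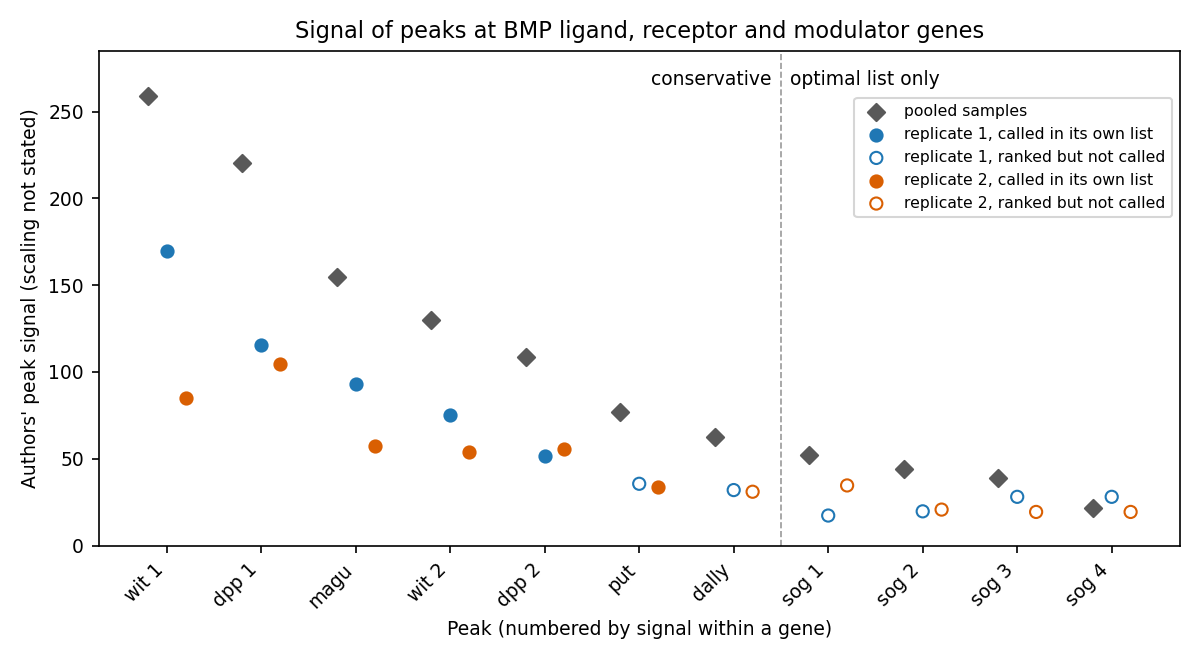
The authors' peak signal (y axis, scaling not stated) of each conservative peak and of each optimal-only peak (x axis) at the 10 genes, pooled and in each replicate; filled circles mark a peak called in that replicate's own list. The stronger *wit* peak has the widest gap between replicates among the conservative peaks, 169.7 against 85.0, and no *sog* peak is called in either replicate.

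Among the extracellular modulators, Magu, also known as Pentagone, is a secreted protein that widens the Dpp gradient in the wing disc. The gene (FBgn0262169) spans chr2R:10052541-10063712 on the plus strand. Its peak at chr2R:10056385-10056720 lay 4012 bp into the gene, in the first intron of the transcripts that begin at the distal TSS and 273 bp upstream of the internal start site of magu-RB. The pooled signal was 154.7 at rank 319, with 93.3 in replicate 1 and 57.5 in replicate 2, and the IDR was 0.000125. Both replicates called it, and it was the conservative peak of these genes nearest to a start site.

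Dally is a glypican, a heparan sulphate proteoglycan of the cell surface that binds Dpp and shapes its spread. The 63.7 kb gene (FBgn0263930) lies at chr3L:8827505-8891192, and its peak lay 5628 bp upstream, at chr3L:8821709-8822044. The pooled signal was 62.8 at rank 1411, with 32.0 in replicate 1 and 31.0 in replicate 2. This was the conservative peak with the least support: neither replicate called it, and it was absent from the optimal list, where its IDR was 0.0236 against 0.00403 in the conservative list. Of all conservative peaks, 206 were likewise missing from the optimal list, with a median signal of 56.6, and 88.3% of those were called in neither replicate. Inside the gene, 53.2 was the highest signal of a ranked region, with an IDR of 0.0266, and the TSS nearest to that region was of *CG32026*.

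Short gastrulation, encoded by *sog*, is the fly Chordin, which binds BMP ligands and restricts or carries them. The gene (FBgn0003463) spans chrX:15603283-15633434 on the minus strand, and its 4 optimal peaks stood at 3 separate places in its introns. The strongest, at chrX:15630837-15631172, lay in the first intron of sog-RB, 2429 bp from its TSS. Its pooled signal was 52.1, with 17.3 in replicate 1 and 34.7 in replicate 2, and its IDR was 0.00939 in the optimal list but 0.155 in the ranked list behind the conservative one. The next, with its summit at 15611395, had a signal of 44.2, with 19.7 in replicate 1 and 20.8 in replicate 2, and IDRs of 0.00339 and 0.0839. The remaining pair, with signals of 38.8 and 21.5, overlapped by 134 bp and rested on the same replicate regions, with 28.1 in replicate 1 and 19.4 in replicate 2. None of the 4 was called in either replicate's own list, whereas 42.2% of the 327 optimal peaks with no conservative partner were called in at least 1.

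Crossveinless 2 (*cv-2*, FBgn0000395), a BMP-binding protein required for the crossveins of the pupal wing, spans 24.45 kb at chr2R:21355015-21379464. It had 46 ranked regions and none passed. Its strongest region, with its summit at 21375888, had a pooled signal of 44.5 but stood apart between replicates, at 30.7 in replicate 1 and 13.8 in replicate 2, with an IDR of 0.358. A region of signal 41.4, with its summit at 21362625, had a lower IDR of 0.0389, and the TSS nearest to it was of *CG17974*.

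**Figure D2:**
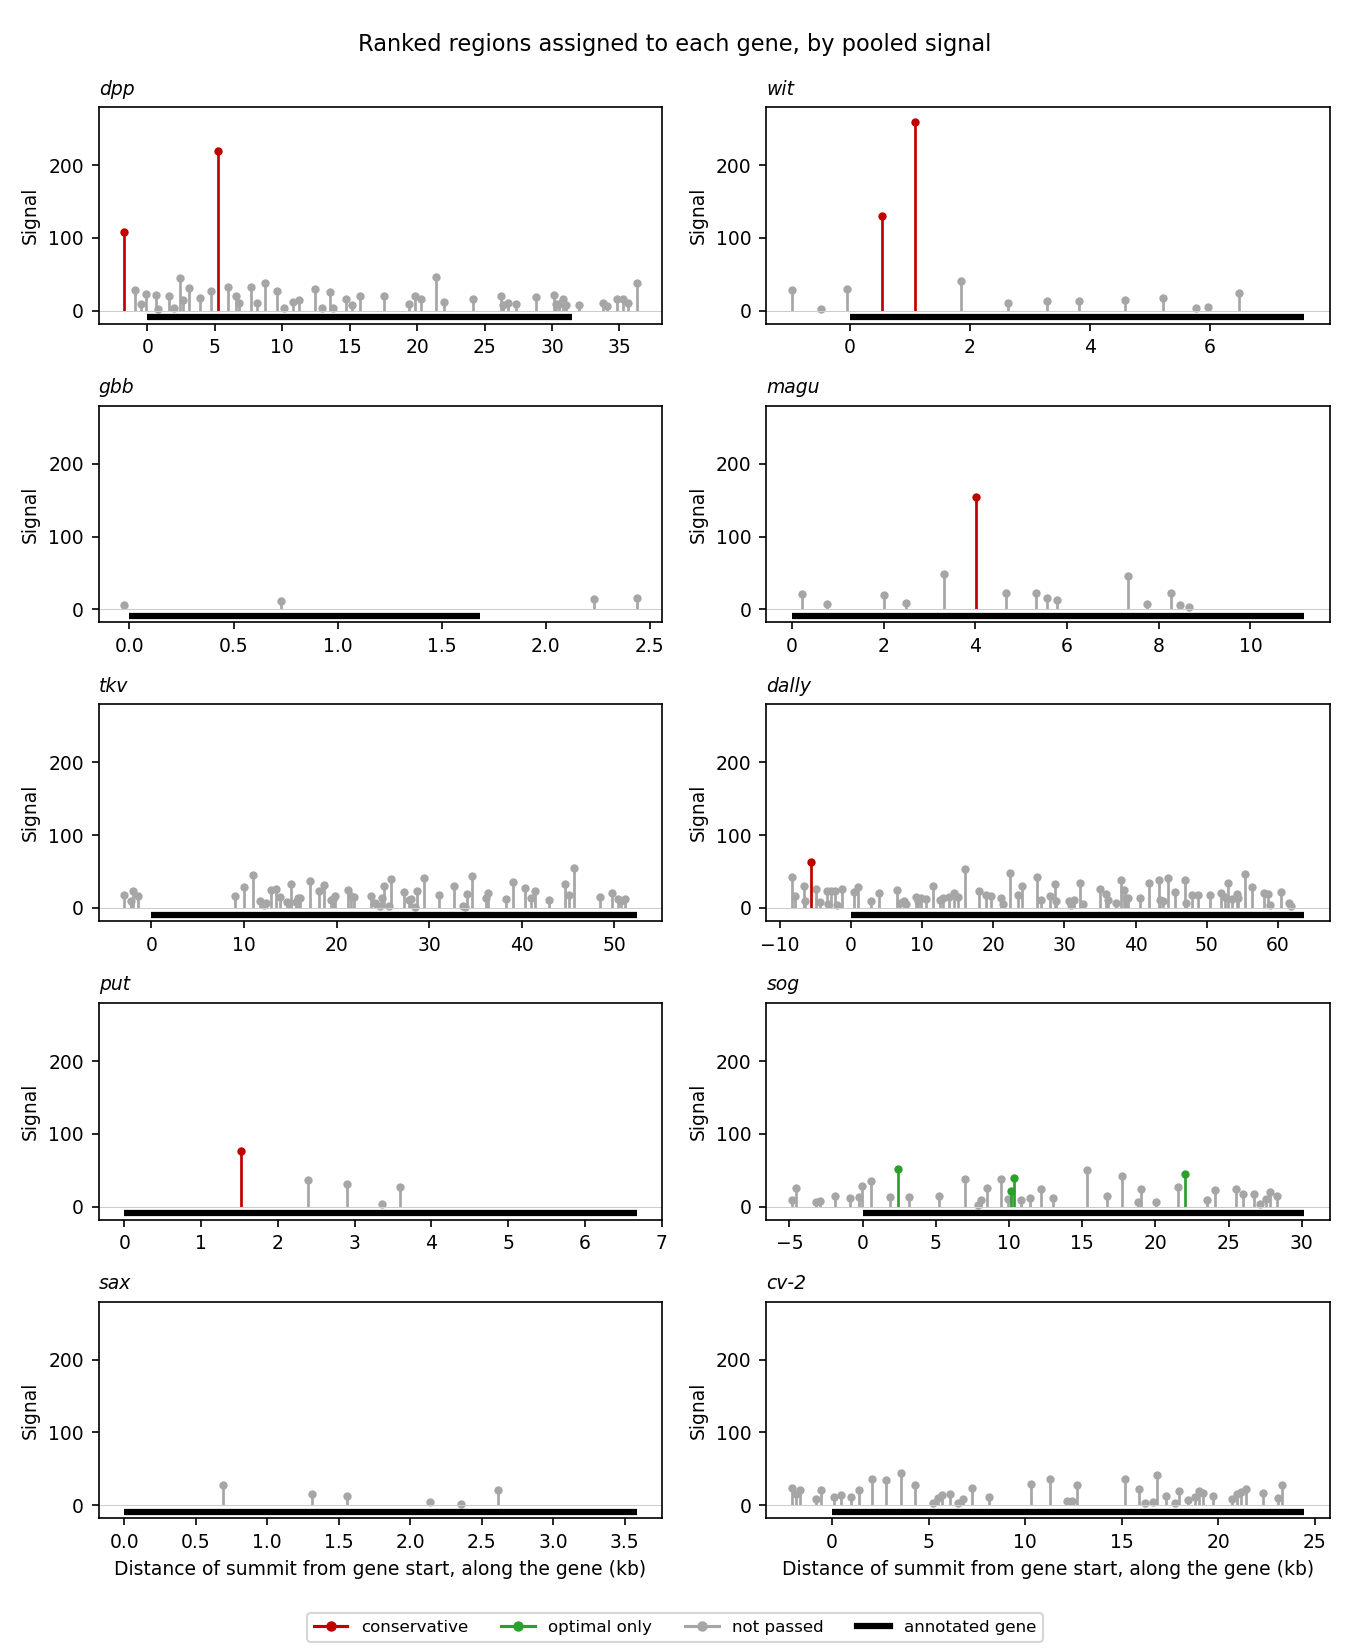
Pooled signal (y axis) of each ranked region assigned to the 10 genes, by distance of its summit from the gene's start along the gene in kb (x axis); the black bar is the annotated gene, red marks conservative peaks and green peaks of the optimal list only. The red peaks of *dpp*, *wit*, *put*, *magu* and *dally* lie before the gene or towards its start, above many grey regions that did not pass.

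In all, 334 ranked regions were assigned to the 10 genes, and 7 of them, 2.10%, were conservative peaks, against 1.33% of the 135586 ranked regions on the main arms. The median signal of ranked regions was 16.3 at the 10 genes and 16.2 on all main arms, a median carried by the long genes. By gene it ranged from 13.0 at *gbb*, with 4 regions, and 13.8 at *sax*, with 6, to 30.9 at *put*, with 5. Of the 7 conservative peaks, those of *put* and *dally* had the highest IDRs, 0.00267 and 0.00403. Both were well under the highest IDR in the conservative list, 0.00999. Of the regions that did not pass, *sog* and *tkv* held those of lowest IDR. The *sog* region, with its summit at 15618089, had a signal of 50.4 and an IDR of 0.0145. That at *tkv* had the IDR of 0.0145 given above. The lowest IDRs at *sog* and *tkv* were taken from 42 and 63 regions. The strongest regions of *gbb*, with 4 regions, and of *sax*, with 6, had IDRs of 0.597 and 0.885. At *cv-2*, with 46 regions, 1 region had an IDR of 0.0389.

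The 7 conservative peaks had a median signal of 129.9, against 86.6 over all 1799, and 5 of them lay above that median. Both replicates called 5 of the 7, or 71.4%, against 43.6% of all conservative peaks, 1 replicate called the *put* peak and neither called the *dally* peak, against 29.0% of all called in neither. The log2 ratio of replicate 1 to replicate 2 signal had a median of 0.14 at the 7 peaks, between -0.11 at the upstream *dpp* peak and 1.00 at the stronger *wit* peak. Over the 1779 conservative peaks that had a replicate region in each sample, the median was 0.28 with an SD of 0.47 across peaks. The scaling of the replicates' signals was not stated, so the sign of a ratio has no meaning of its own. Replicate 1 was higher at 6 of the 7 peaks and at 73.7% of all, and the ratio at the stronger *wit* peak stood more than 1 SD above the median.

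**Figure D3:**
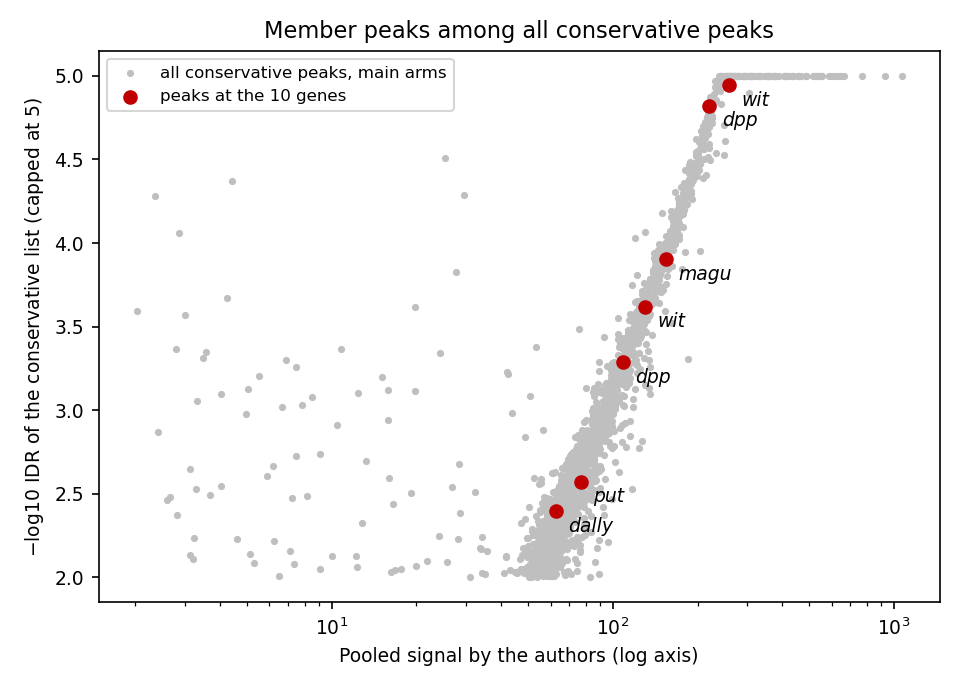
Pooled signal (x axis, log scale) and −log10 IDR in the conservative list's ranked regions (y axis, capped at 5) of the 1799 main-arm peaks of the conservative list, in grey, with the 7 peaks at the 10 genes in red. The stronger *wit* peak and the intronic *dpp* peak sit towards the upper right, and *put* and *dally* among the lower values.

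By position, 5 of the 7 summits lay inside the gene, and all 5 were in the first intron of at least 1 transcript. Over all conservative peaks 40.2% lay in such an intron, and first introns made up 20.8% of the bases of the main arms. Of the 7 summits 2, at *magu* and *wit*, were within 1 kb of a TSS, against 47.8% of all conservative peaks, and the median distances were 1524 bp and 1120 bp. Within 500 bp there was 1 of 7, against 36.7% of all, and within 2 kb 5 of 7, against 60.6% of all, so the order of the shares turned with the limit. Widening the search for the nearest TSS from 10 kb to 50 kb added no peak to any of the 10 genes.

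Base composition was not used to choose the genes. The share of G and C in the 100 bp at the 7 summits ranged from 22% to 38%, with a mean of 29.9%. The mean was 49.7% for windows of 100 bp centred 300 bp to either side. The difference was -19.9 ± 7.28 percentage points (SD over 7 peaks, which are not replicates), and each of the 7 summits was below its flanks. With windows of 200 bp 6 of the 7 were, and in the optimal list 9 of 10 peaks at the 10 genes. Over all 1799 peaks the summits held 35.1% and the flanks 44.8%, a difference of -9.67 ± 13.2 points, and 78.8% were below their flanks. The difference was -14.4 points for the 25 percent of conservative peaks of highest signal and -12.8 for those called in both replicates. It was -8.77 for conservative peaks over 1 kb from a TSS. Of all conservative summits 21.8% had a difference at or below the members' mean. The part of signal in the members' mean was not tested. With flanks 500 bp away the difference was -12.3 points at the members and -7.70 over all peaks.

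Peak by peak, the largest difference was at *put*, with 22% at the summit and 50% in the flanks. The *magu* summit held 38% between flanks of 63%, the upstream *dpp* summit 30% between 53.5%, and the intronic *dpp* summit 32% between 52%. *dally* had 27% against 46.5% and the stronger *wit* peak 27% against 44.5%. The weaker *wit* peak differed least, with 33% against 38.5%, since its flanks were themselves rich in A and T. At the strongest *sog* peak, outside the conservative list, the summit held 32% and the flanks 36%. The *sog* peak with its summit at 15611395 went the other way, with 48% against 41%, and the overlapping pair held 35% against 47% and 40% against 45%. At the *tkv* region that passed no threshold the summit held 40% and the flanks 36.5%.

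**Figure D4:**
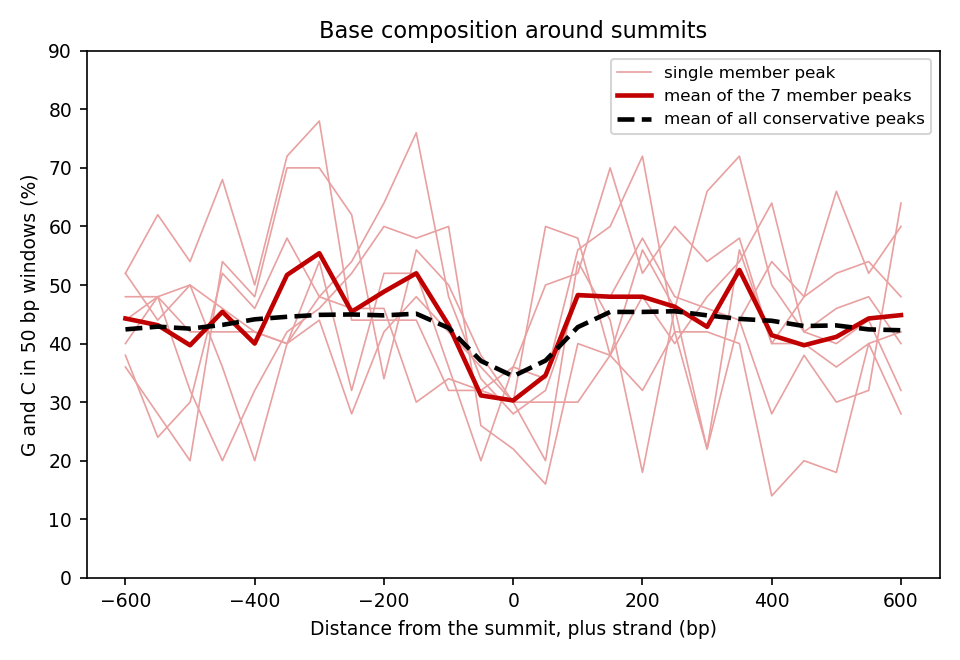
Share of G and C in 50 bp windows (y axis, %) by distance from the summit on the plus strand (x axis, bp), for each conservative peak at the 10 genes (thin lines), their mean (red) and the mean of all conservative peaks (dashed). Both means are lowest near the summit, at 30.3% for the members and 34.4% for all peaks at distance 0.

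Short letter strings were sought on both strands of the same 100 bp windows, 15 in all, some of which overlap each other. TTAAAA occurred at 4 of the 7 summits, those of *dally*, *put*, the intronic *dpp* peak and the stronger *wit* peak, against 31.9% of all conservative summits and 2 of the members' 14 flanks. GATAA, the core letters that GATA factors bind, occurred at 3 of 7, at *put* and both *wit* peaks, against 21.5% of all. TTTAAA occurred at 3 of 7, against 20.3%, and AAATAT at 2 of 7, against 30.1%. The homeodomain core TAATTA stood in the *magu* window alone, against 8.95% of all.

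Of the strings sought for the pathway's own factors, only GTCTG stood at a member summit. The Mad string GCCGNCGC was in none of the 7 windows and in 0.834% of all conservative summits, while none of the 7 held any of the 3 strings sought for Brinker; other forms of its site were not sought. Of all conservative summits GGCGCC was in 0.834%, whereas GGCGCT was found in 1.28%, and the last of the 3, GGCGCA, in 2.33%. GTCTG, the Medea letters of BMP silencer elements, stood at the weaker *wit* summit, against 7.78% of all. Over the flanks of all conservative peaks each share was higher, at 2.08% for GCCGNCGC, 1.86% for GGCGCC and 4.03% for GGCGCT. There GGCGCA was in 5.31% and GTCTG in 12.6%. Of the members' 14 flanks, GGCGCT was in 3, and GGCGCA and GTCTG were in 1 each. The strings ATTTTAAA (5.89% of all summits), GAGAG (9.17% of all), CACACA (5.39% of all), CAGCTG (2.45% of all) and CGATA (11% of all) were not found at the 7 summits. A match or its absence describes the letters of these windows only.

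Other genes of the pathway and of the wider transforming growth factor beta family were read from lists by role, under the same rule for peaks. These lists were not limited to BMP signalling, so their counts are not counts of BMP genes alone. Shares are given beside the 10.1% of all genes with a conservative peak. These lists were also chosen with earlier results of these data known, so nothing is read from their shares. None of the 5 other ligands of the transforming growth factor beta family (*scw*, *mav*, *Actbeta*, *daw* and *myo*) had a conservative peak, and nor had the type I receptor *babo*, which had a peak of signal 37.7 in replicate 1's own list alone. Of 14 other extracellular modulators 3 did, or 21.4%. *Fs*, which encodes Follistatin, an activin-binding protein, had a pooled signal of 97.5, with 60.3 in replicate 1 and 35.2 in replicate 2, and both called it. The glypican gene *dlp* had 3 peaks, with a highest signal of 76.4, and the TSS nearest to that one was of another gene, *CG43121*. Replicate 1 alone called that peak. The peak of *cv-d*, which encodes a lipoprotein needed for crossveins, had a signal of 62.1 and was called in neither replicate.

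Inside the cell, 5 of 7 transducers and nuclear regulators, or 71.4%, held a conservative peak, with 18 peaks between them. Genes of this list ran from 3.19 kb at *brk* to 58.3 kb at *shn*, against a median of 2.17 kb over all protein-coding genes. *shn*, which encodes a zinc-finger cofactor of Mad, had 9 peaks with a highest pooled signal of 190.7, and *brk*, the repressor of Dpp targets, had 4 with a highest of 96.5. *Mad* itself had 2, the stronger at 93.1, and *Dad*, the inhibitory Smad gene, had 2, the stronger at 91.6. Both replicates called the strongest peaks of *shn* and *Dad*, while replicate 2 alone called those of *brk* and *Mad*. The *brk* peak nevertheless had a signal of 67.6 in replicate 1 and 31.2 in replicate 2. The *Mad* peak had 39.6 in replicate 1 and 57.2 in replicate 2. The fifth gene was *Smox*, with 1 peak of signal 59.3 that neither replicate called. None of the 4 wing targets of Dpp in the list (*salm*, *salr*, *bi* and *vg*) had a conservative peak. Among the 10 genes the count was 1 of 2 ligands, 2 of 4 receptors and 2 of 4 modulators, so each role was split between genes with a peak and genes without.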

How the data were processed

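ChIP-seq peak lists of the 2 replicates were used. Per the labels, coordinates were on dm6. For the aligner and peak caller, the names are not given in the sources used here. The authors deposited ranked and IDR thresholded lists for the pooled samples and for each replicate, made against the same control per the deposited text. The deposited signal is a peak strength whose scaling was not stated. The deposited score is the scaled IDR, and the lowest score in the conservative list was 830. The deposited −log10 values hold the IDR. The ranked list behind the conservative list was taken as the pooled one that held all 1814 of its peaks; which pairs of lists the authors compared is not given in the sources used here. The summit came from the deposited offset, the other deposited value used. Replicate signals came from each replicate's own ranked list, from the region over the peak (overlap of at least 1 bp), since 4 columns of per-sample values in the pooled ranked lists have no header and were used by no step.

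Genes came from Ensembl release 115, 13945 protein-coding genes on the main arms, and sequence from the RefSeq genome. All region ends lay within its chromosomes. The 10 genes, the other pathway lists and the letters sought were chosen with earlier results of these data known. The genes named are those 10 and any other gene whose TSS is nearest to a peak inside a listed gene. Up to 4 genes of each other list with a conservative peak are also named. *TpnC25D*, *CG32026*, *CG17974*, *CG32259*, *Smox*, *scw*, *mav*, *Actbeta*, *daw*, *myo*, *babo*, *salm*, *salr*, *bi* and *vg* were added for completeness after their values were seen. No test was run. Assignment and overlap were tested on simulated data. Python 3.11.15 was used with numpy 2.4.6, pandas 2.3.3 and matplotlib 3.10.9.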

Additional observations from a re-analysis of the deposited data

How the results depend on the processing

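Of 79 alternative values, 67 stayed within 1.5 times of the main count or within the spread between replicates (for the log2 ratio, across peaks), 12 moved and 0 changed sign. The count of genes with a conservative peak, 5, was 3 at an IDR of at most 0.001, and 3 to 4 when the list of a single replicate was used. Peaks within 1 kb of a TSS, 2, became 1 at 500 bp, 5 at 2 kb and 1 with the outermost TSS of each gene. The median share of stronger peaks, 24.4%, was 44.5% in the optimal list and 22.2% to 45.8% in the lists of single replicates. The base composition difference, -19.9 points, was -13.4 in the optimal list, -18.3 at an IDR of at most 0.001, -12.6 with 200 bp windows, -12.3 with flanks 500 bp away and between -19.9 and -18.2 in the lists of single replicates; over all conservative peaks it was -7.24 with 200 bp windows. Leaving out peaks that share their replicate regions with a stronger peak, chosen after seeing the data, left 7 peaks at 5 genes. Replicate signals from the pooled ranked lists were not run, because those columns have no names. No paired analysis was possible because the series has 1 group. The median log2 ratio of the replicates, 0.14, was 0.31 in the optimal list and with a TSS limit of 5 kb, and 0.48 at an IDR of at most 0.001 and for summits inside a gene; it was judged against the SD across single peaks (0.47), which is a wide margin for a median. The unknown depth limits any reading of a region that did not pass.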

Other observations

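The ranked regions at *tkv* left a gap of 10.5 kb, at chr2L:5262322-5272830, over the start of the gene and the nested genes *Cyp4ac1*, *Cyp4ac2* and *Cyp4ac3*, a stretch chosen after its values were seen. The median distance between neighbouring ranked summits on the main arms was 664 bp. Of 135580 such distances 877 were at least as long as this one, and they held 12.9% of the bases. The stretch holds no unknown base in the reference, and its share of G and C was 38.2%. The replicates' own ranked lists did hold regions there, 2 in replicate 1 and 5 in replicate 2, while the other pooled ranked list held 0. A smaller gap of 4.53 kb lay over the end of *put*, with 2 and 3 regions in the replicates' own lists. At least as long were 1820 distances, which held 17.9% of the bases. What sets these gaps was not tested.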
